A study of Mus musculus with 6 samples.

Results

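The HoxA, HoxC and HoxD clusters and the Evx genes beside them were read along their whole length in the DNA of mouse lung endothelial cells with and without Dnmt3a. The genes described are 30: Hoxa2, Hoxa3, Hoxa4, Hoxa5, Hoxa6, Hoxa7, Hoxa9, Hoxa10, Hoxa11, Hoxa13 and Evx1; Hoxc4, Hoxc5, Hoxc6, Hoxc8, Hoxc9, Hoxc10, Hoxc11, Hoxc12 and Hoxc13; and Hoxd1, Hoxd3, Hoxd4, Hoxd8, Hoxd9, Hoxd10, Hoxd11, Hoxd12, Hoxd13 and Evx2. All tiles of 1 kb from 50 kb before to 50 kb after the outer edges of these genes in each cluster were taken, which gave 640 of the 1954255 tiles in the table (244 for HoxA, 194 for HoxC and 202 for HoxD). The tiles were taken by position alone, but the genes were chosen with earlier results of these data known.

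The assay was whole-genome bisulfite sequencing of tagmented DNA, which uses a transposase to make libraries from little DNA and reads methylated cytosines as those that bisulfite leaves unconverted. Lung endothelial cells were isolated by flow cytometry from Dnmt3a knockout mice (KO) and wild-type mice (WT), with 3 samples in each group. The labels give no Cre driver, deleted exon, age or strain, and nothing in them tells separate mice from repeat preparations, so the p-values cover the spread among these 6 samples alone, which may be technical. The deletion itself cannot be read from methylation levels. All values are methylation levels in percent of a region, and all differences are KO minus WT in percentage points.

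Hox genes encode homeodomain transcription factors that give cells their position along the body axis. In each cluster the genes lie in the order in which they are used: low-numbered paralog groups act towards the head and are called anterior, high-numbered groups act towards the tail and in the limbs and are called posterior, and the Evx genes, relatives of even-skipped, lie beyond the posterior end. Polycomb complexes keep silent Hox genes packed in histone H3 lysine 27 trimethylation, and such stretches are usually free of DNA methylation. Dnmt3a is a de novo DNA methyltransferase, known for setting methylation at the edges of wide unmethylated domains of this kind.

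Over all 1954255 tiles the mean level was 63.5 to 63.8% in the KO samples and 68.7 to 69.5% in the WT samples, and the median tile differed by -4.05 points, so each Hox value below is read against a general loss. Endothelial identity could be checked only through methylation: in WT the 10 starts of endothelial genes ranged from 0.647 to 74.6% and the 3 of epithelial genes from 1.72 to 33.0%, ranges that overlap and so do not tell these cell types apart. The starts of the leukocyte genes Ptprc, Cd3e, Itgam, Lyz2 and Cd79a lay between 54.5 and 77.7% in WT and between 44.1 and 78.6% in KO. Of the marker lists, 1 of 8 endothelial, 1 of 6 leukocyte, 0 of 5 epithelial, 3 of 5 mesenchymal and 0 of 2 erythroid gene regions fell by at least 10 points at an adjusted p under 0.05 (limma), against 19.1% of all gene regions. With no minimum these counts were 7, 4, 3, 5 and 1, against 60.7% of all gene regions. The mesenchymal regions ranged from 31.2 to 69.6% in WT and from 1.44 to 61.8% in KO. The start of Tcf21, a lung fibroblast regulator in that list, was at 57.8% in WT and 1.12% in KO, and that of Pdgfra was under 1% in both groups. The part of cell composition in the Hox results was not tested. The level of a sorted population also cannot tell apart methylation lost in some cells from methylation lowered in all of them.

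The sequences on which the gene start results turn are the promoters of 4 members, printed from RefSeq (GRCm38.p6, the assembly of mm10) from 250 bases before to 50 bases after the gene start, 5′ to 3′ on the gene's strand. Capitals mark CG, the dinucleotide at which methylation is read, which has the same letters on both strands. Hoxa7 and Hoxd4 are shown because their starts lost methylation, and Hoxa6 and Hoxd13 because their starts were low in both groups while the gene around them lost it.
Hoxa6 promoter, chr6:52208623-52208922, minus strand: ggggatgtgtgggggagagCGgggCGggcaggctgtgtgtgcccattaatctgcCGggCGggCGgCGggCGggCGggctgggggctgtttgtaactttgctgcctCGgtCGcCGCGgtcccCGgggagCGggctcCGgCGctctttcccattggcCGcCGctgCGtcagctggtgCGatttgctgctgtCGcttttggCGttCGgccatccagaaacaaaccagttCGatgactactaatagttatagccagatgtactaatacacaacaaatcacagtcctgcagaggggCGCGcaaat
Hoxa7 promoter, chr6:52218524-52218823, minus strand: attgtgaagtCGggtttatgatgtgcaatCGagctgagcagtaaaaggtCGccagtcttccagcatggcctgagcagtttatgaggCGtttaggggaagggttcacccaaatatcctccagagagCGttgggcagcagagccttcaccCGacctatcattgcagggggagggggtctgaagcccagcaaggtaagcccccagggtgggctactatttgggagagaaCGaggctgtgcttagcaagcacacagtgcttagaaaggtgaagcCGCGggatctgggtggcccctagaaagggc
Hoxd4 promoter, chr2:74721728-74722027, plus strand: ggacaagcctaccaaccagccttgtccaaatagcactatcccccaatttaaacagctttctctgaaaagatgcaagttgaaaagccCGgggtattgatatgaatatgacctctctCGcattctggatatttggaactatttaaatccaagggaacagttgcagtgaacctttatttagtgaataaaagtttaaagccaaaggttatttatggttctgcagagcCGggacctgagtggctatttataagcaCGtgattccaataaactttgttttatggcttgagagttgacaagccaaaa
Hoxd13 promoter, chr2:74667975-74668274, plus strand: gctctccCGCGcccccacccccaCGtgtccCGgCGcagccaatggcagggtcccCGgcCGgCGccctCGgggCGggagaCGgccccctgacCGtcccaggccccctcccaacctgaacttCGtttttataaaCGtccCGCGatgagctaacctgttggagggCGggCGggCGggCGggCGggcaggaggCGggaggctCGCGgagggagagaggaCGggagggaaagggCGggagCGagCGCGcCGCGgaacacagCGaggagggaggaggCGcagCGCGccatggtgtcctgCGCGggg

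The Hoxa6 and Hoxd13 promoters hold 26 and 37 CG, and those of Hoxa7 and Hoxd4 hold 9 and 4. RefSeq promoters were matched for 21 of the 30 members, with 23 starts in all. None was matched for Hoxa4 or for any HoxC gene except Hoxc4, so the start results hardly cover HoxC. They held from 4 to 45 CG, with Hoxa13 the richest, and their median was 16. All 23 held at least 1 CG, against 94.6% of the 32851 promoters in the table, whose median was 7 CG.

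The clusters also encode microRNAs, whose mature sequences from RefSeq are given because they mark fixed places in the clusters at which tiles were read: miR-196b lies between Hoxa9 and Hoxa10, miR-196a between Hoxc9 and Hoxc10, miR-10b inside the Hoxd4 span and miR-615 inside the Hoxc5 span. Capitals mark the seed, bases 2 to 8. The first 2 share the seed AGGUAGU although the loci read here, Mir196b and Mir196a-2, lie in HoxA and in HoxC.
miR-196b-5p: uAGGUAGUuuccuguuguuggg
miR-196a-5p: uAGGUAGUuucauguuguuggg
miR-10b-5p: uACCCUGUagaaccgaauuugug
miR-615-3p: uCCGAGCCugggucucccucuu

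HoxA lost the most methylation of these clusters, and inside it the loss was deepest on the anterior side, from Hoxa3 to Hoxa7. HoxA (chr6, 52162417 to 52318389, 150 tiles) had a mean level of 14.7, 14.1 and 14.8% in the KO samples and 28.6, 26.1 and 26.1% in the WT samples, a difference of -12.4 points. HoxD (chr2, 74652989 to 74765142, 111 tiles) was at 10.3, 9.22 and 10.2% in KO and 16.0, 15.4 and 15.6% in WT, a difference of -5.77 points. HoxC (chr15, 102921131 to 103036856, 111 tiles) was at 5.12, 4.41 and 4.71% in KO and 7.04, 6.65 and 6.0% in WT, a difference of -1.82 points. In all 3 clusters every KO sample lay below every WT sample. With 3 samples against 3 the two-sided exact permutation test cannot go below p = 0.10, and each cluster reached 0.10. Centring each sample on its median tile level adds the same points to every tile of a sample, low or high, and gave differences of -7.53 points for HoxA, -0.88 for HoxD and 3.07 for HoxC. Scaling each sample to one mean tile level gave -10.8, -4.74 and -1.36 points.

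**Figure D1:**
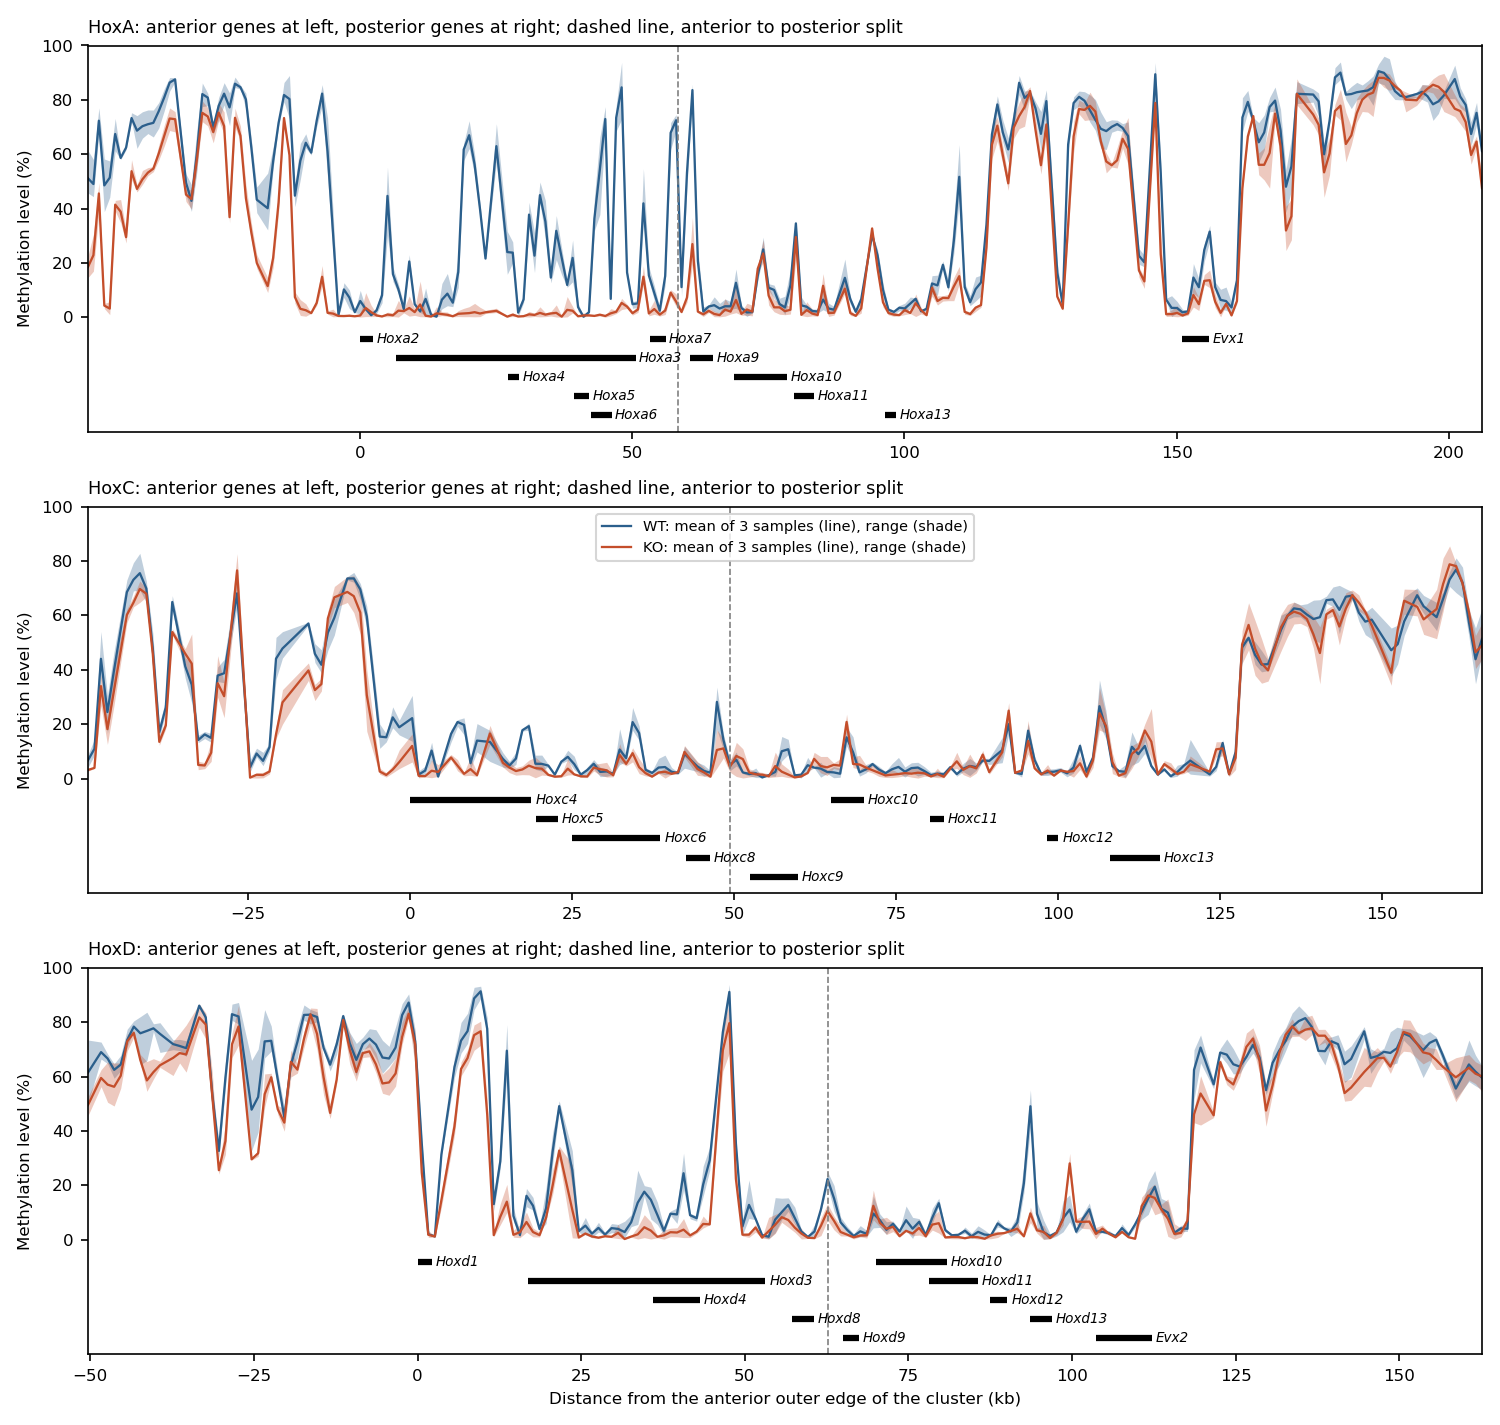
Methylation level in percent of each 1 kb tile against distance in kb from the anterior outer edge of HoxA, HoxC and HoxD, with 50 kb on either side; lines are means of 3 samples, shades the range, black bars the gene spans and dashed lines the split between anterior and posterior. Between the anterior edge of HoxA and the split, WT peaks of up to 84.6% are missing in KO, while right of the split the lines run close together from Hoxa10 to Hoxa13.

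Each cluster was divided halfway between its group 9 gene and the next anterior neighbour, into an anterior segment (groups 1 to 8), a posterior segment (groups 9 to 13) and, in HoxA and HoxD, the side that reaches to Evx. The anterior HoxA segment of 57 tiles, which carries Hoxa2 to Hoxa7, was at 2.09, 1.85 and 2.18% in KO and 26.2, 22.6 and 22.9% in WT. KO thus held 8.53% of the WT level there, with means of 2.04% ± 0.172 and 23.9% ± 1.96 (SD, n = 3). The posterior HoxA segment of 38 tiles, from Hoxa9 to Hoxa13, was at 6.49, 6.17 and 7.03% in KO and 12.6, 11.5 and 11.5% in WT, which is 55.3% of the WT level. The order of the segments turned over: in WT the anterior side was the more methylated by 12.02 points, and in KO it was the less methylated by 4.52 points. This change in the anterior minus posterior difference was -16.5 points, with no overlap between the groups (exact permutation p = 0.10, two-sided, the smallest possible). The anterior HoxA segment also fell by 17.7 points more than that of HoxC and by 13.2 points more than that of HoxD, each without overlap (exact permutation p = 0.10).

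HoxC had little methylation to begin with. Its anterior segment of 46 tiles, from Hoxc4 to Hoxc8, was at 4.24, 3.56 and 4.40% in KO and 8.47, 8.60 and 7.63% in WT, so that KO held 49.4% of the WT level. Its posterior segment of 65 tiles, from Hoxc9 to Hoxc13, was at 5.74, 5.0 and 4.93% in KO and 6.02, 5.27 and 4.85% in WT. The posterior samples overlapped, and their means differed by -0.159 points (exact permutation p = 0.7). The anterior minus posterior difference changed by -4.01 points without overlap (exact permutation p = 0.10).

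HoxD changed on both sides of the split. Its anterior segment of 61 tiles, from Hoxd1 to Hoxd8, was at 15.1, 13.5 and 14.5% in KO and 23.4, 22.7 and 22.9% in WT. Its posterior segment of 34 tiles, from Hoxd9 to Hoxd13, was at 3.04, 2.98 and 3.37% in KO and 7.02, 6.39 and 6.46% in WT. In points the anterior side fell further, and the anterior minus posterior difference changed by -5.14 points (exact permutation p = 0.10). As a share of WT the order was the opposite: KO held 62.4% of the anterior and 47.2% of the posterior level, and log2 of anterior over posterior rose by 0.40 (exact permutation p = 0.10). In HoxA and HoxC the same log2 ratio changed by -2.70 and -0.98, the direction seen in points.

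**Figure D2:**
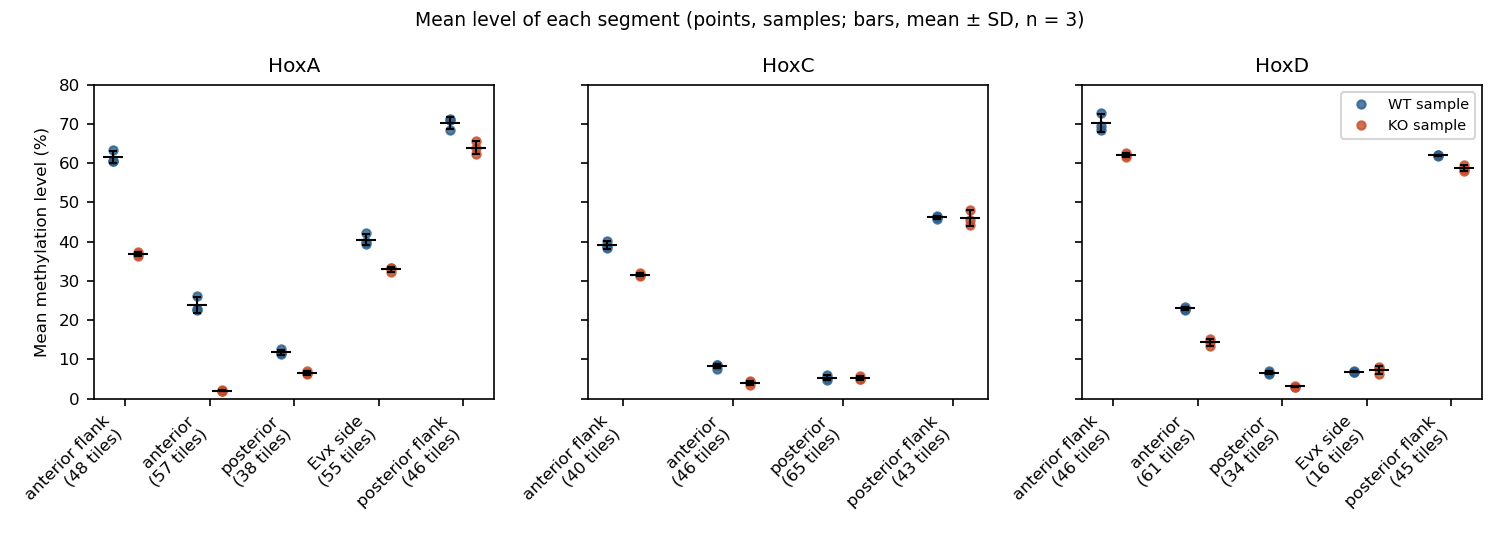
Mean methylation level in percent of the anterior flank, anterior, posterior, Evx side and posterior flank of HoxA, HoxC and HoxD (points, samples; bars, mean ± SD, n = 3). The KO points of the HoxA anterior segment lie at 1.85 to 2.18% against 22.6 to 26.2% in WT, whereas the HoxC posterior points overlap.

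The sides that carry the Evx genes differed from each other. The HoxA stretch beyond Hoxa13, 55 tiles up to Evx1, was at 33.4, 32.3 and 33.2% in KO and 42.2, 39.9 and 39.5% in WT, a difference of -7.55 points without overlap. The HoxD stretch beyond Hoxd13, 16 tiles with Evx2, was at 7.47, 6.27 and 8.10% in KO and 6.91, 6.77 and 7.08% in WT, with overlap (exact permutation p = 0.6).

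Loss was not limited to the genes. The anterior flank of HoxA (48 tiles) fell from 61.5 to 36.8%, a difference of -24.6 points, more than inside the cluster. The anterior flanks of HoxC and HoxD differed by -7.61 and -8.17 points. The posterior flanks differed by -6.31 points at HoxA, by -3.20 at HoxD and by -0.278 at HoxC, where the samples overlapped (exact permutation p = 0.9). Every other flank had all KO samples below all WT samples.

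HoxB, the remaining Hox cluster, is the region most like these. It was at 18.5, 17.2 and 17.7% in KO and 39.1, 38.7 and 37.8% in WT. HoxB minus the mean of the other clusters was 8.06 points in KO and 22.1 points in WT, so HoxB fell by 14.0 points more than their mean (exact permutation p = 0.10, no overlap). The anterior HoxA segment alone differed by -21.9 points, and the whole of HoxB by -20.7, which sets a part of one cluster beside the whole of another. Among single gene regions, Hoxb3 went from 53.8 to 1.95%, a difference of -51.8 points. The largest loss of a member, at Hoxa6, was -34.1 points. In HoxB, 7 of 10 gene regions fell by at least 10 points, against 19.1% of all gene regions: Hoxb1 to Hoxb7, and not Hoxb8 (4.75 to 2.27%), Hoxb9 (6.69 to 2.66%) or Hoxb13.

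Tile by tile, 154 of the 640 tiles fell by at least 10 points at an adjusted p under 0.05 (limma, adjusted over all tiles), which is 24.1% of them against 16.2% of all tiles tested. HoxA held 96 of these, HoxD 39 and HoxC 19, or 39.3, 19.3 and 9.79% of their tiles. On the anterior segments 62 of 164 tiles fell (37.8%), and on the posterior segments 5 of 137 (3.65%). By cluster, 31 of 57 anterior and 3 of 38 posterior tiles fell in HoxA, 9 of 46 and 0 of 65 in HoxC, and 22 of 61 and 2 of 34 in HoxD. Neighbouring tiles are not independent: over all tiles, deviations from the group mean correlated between adjacent tiles at 0.53 to 0.55 in each sample. These counts and the runs of tiles below are therefore not of separate observations. With no minimum difference, 93 anterior and 18 posterior tiles fell, 4 of them in posterior HoxC, beside 18.4% of all tiles. On levels centred by the median tile the split of lower and higher calls was 66 and 2 in HoxA, 7 and 5 in HoxC and 10 and 1 in HoxD. The lower calls were then 27, 3.61 and 4.95% of the tiles of these clusters, against 6.64% of all tiles, and 0.931% of all tiles were higher. Low tiles cannot pass a minimum of 10 points: 54, 57 and 57 of the 65 posterior HoxC tiles were already under 10% in the WT samples.

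The groups were fully apart with KO lower in 286 of the 640 tiles, 44.7% against 31.6% of all tiles. The opposite order was met in 12 tiles, 1.88% against 1.54%. The median tile difference was -3.57 points over the 640 tiles and -4.05 over all tiles, so the loss of the median Hox tile was not larger than that of the median tile. In the anterior HoxA segment the median was -13.2 points, and in its flank -20.2.

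A single tile rose by at least 10 points, against 0.0796% of all tiles. It lies on chr2 at 74665001 to 74666000, between Evx2 and Hoxd13 within the span of the predicted gene Gm31790. Its level was 26.4, 26.2 and 31.8% in KO and 16.5, 6.66 and 10.3% in WT, without overlap, a rise of 17.0 points (SE 2.50, limma adjusted p = 5.40e-05). With no minimum difference 5 tiles rose, beside 0.10% of all tiles: this one and its neighbour, and 3 tiles on the posterior side of HoxC or in its posterior flank. One of those, in Hoxc13, was at 25.8% in 1 KO sample and 7.28 and 7.74% in the others, against 3.71 to 5.45% in WT. HoxA had 0 risen tiles under either rule, and 2 at an unadjusted p under 0.05.

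The longest runs of fallen tiles in HoxA outside the genes lay in its anterior flank. The run at 52112001 to 52129000, which overlaps the non-coding gene Halr1, went from 67.5 to 43.4%. The run at 52137001 to 52148000 went from 68.5 to 41.8%, and the run at 52149001 to 52158000, which reaches the non-coding gene Hotairm2, from 61.6 to 10.9%. The longest run inside the cluster, at 52180001 to 52191000 over Hoxa3 and Hoxa4, was at 1.62, 2.0 and 0.850% in KO and 43.9, 41.5 and 39.3% in WT. The last was nearly emptied, while the first of these runs kept intermediate levels.

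In HoxC the longest run of fallen tiles, 103036001 to 103044000, crosses the outer edge of Hoxc4 and went from 25.7 to 9.37%. The next were 5 pairs of tiles of equal length, at 103001001 to 103003000 in Hoxc6 (18.8 to 6.79%) and at 103018001 to 103020000 (18.6 to 4.08%) and 103028001 to 103030000 (20.3 to 3.27%) in Hoxc4. The other two, at 103051001 to 103053000 (51.5 to 36.2%) and 103056001 to 103058000 (46.0 to 22.2%), lie in the anterior flank, and none lies on the posterior side. In HoxD the longest, 74751001 to 74757000 in the non-coding gene Haglr between Hoxd3 and Hoxd1, went from 61.6 to 37.1%. The others named by the rule were 74787001 to 74791000 (61.7 to 43.7%) and 74643001 to 74647000 (63.5 to 48.6%) in the flanks, and 74741001 to 74745000 in Hoxd3 (35.8 to 21.3%).

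The HoxA loss joined short unmethylated stretches into 1 long valley. Of the 57 anterior HoxA tiles, 55, 56 and 55 were under 10% in the KO samples, and 23, 22 and 23 in the WT samples. Tiles at 50% or more numbered 0 in each KO sample and 11, 10 and 10 in WT. The longest run of tiles under 10% at HoxA, in which a bin with no measured tile did not end the run, measured 58, 58 and 40 kb in KO and 9, 10 and 10 kb in WT (exact permutation p = 0.10). The runs of 58 kb hold 56 measured tiles and that of 40 kb holds 38. On the KO mean the run spans 52156001 to 52214000, from outside the anterior edge of the cluster through Hoxa2 to the start of Hoxa3. In the KO sample with the shorter run, 1 tile at 52173001 to 52174000 was at 13.3%, which split it.

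**Figure D3:**
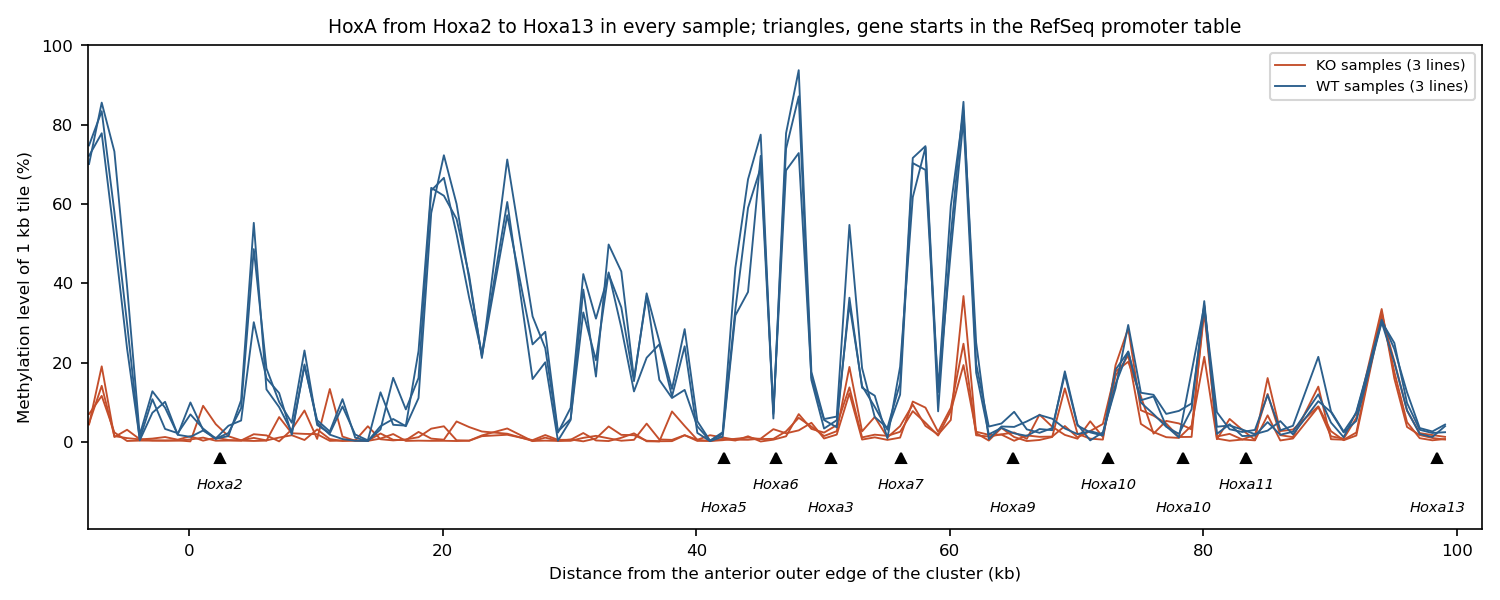
Methylation level in percent of 1 kb tiles from Hoxa2 to Hoxa13 in each sample, against distance in kb from the anterior outer edge of HoxA; triangles mark gene starts. WT peaks between the starts reach 93.8% in 1 sample, while from Hoxa2 to the start of Hoxa3 the KO lines stay at or below 13.3%.

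In HoxD the longest run under 10% measured 22, 23 and 23 kb in KO and 12, 15 and 12 kb in WT. Tiles under 10% numbered 87, 90 and 87 of 111 in KO and 71, 71 and 68 in WT. HoxC had 96, 98 and 99 of 111 such tiles in KO and 85, 90 and 91 in WT, and no tile at 50% or more in any sample. Its longest run was 20, 34 and 24 kb in KO and 22, 24 and 21 kb in WT, with overlap (exact permutation p = 0.7). The counts of tiles under 10% in the whole clusters did not overlap between groups in HoxA, HoxC or HoxD (exact permutation p = 0.10 each). Counted under 20% instead, the HoxC means differed by 1.67 tiles, with overlap (exact permutation p = 0.5).

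**Figure D4:**
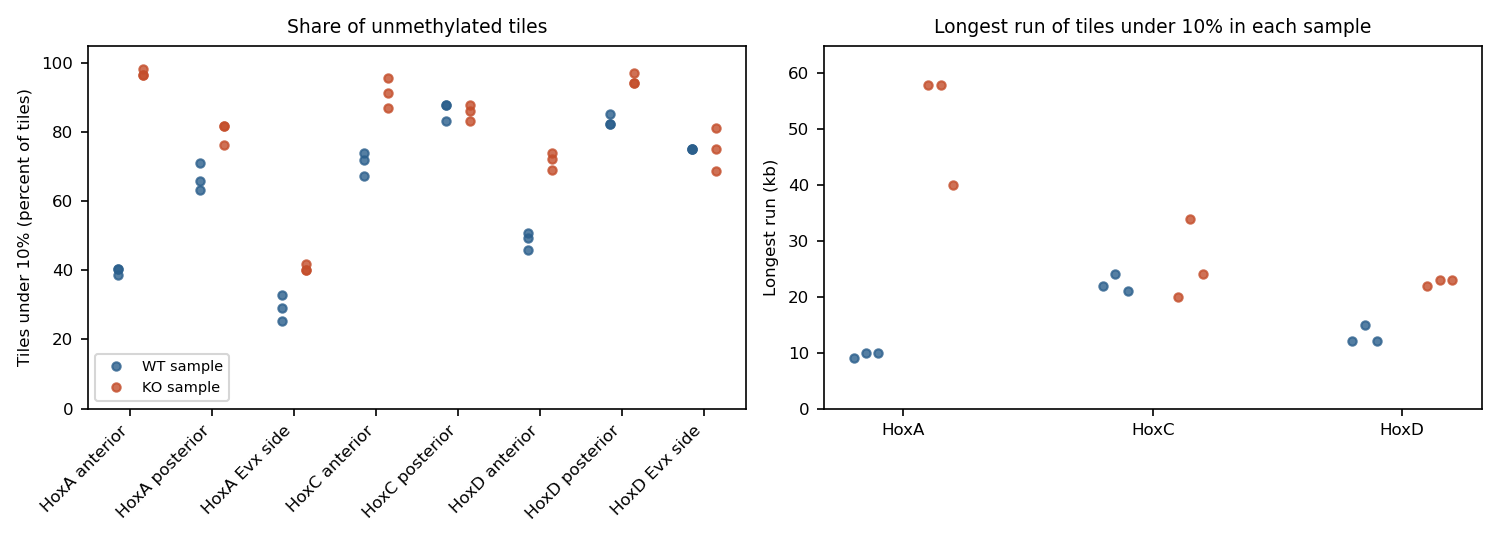
Left, tiles under 10% as percent of the tiles of each segment; right, longest run of such tiles in kb at HoxA, HoxC and HoxD with 50 kb on either side; each point is 1 sample. At HoxA the KO runs of 40 to 58 kb stand above the WT runs of 9 to 10 kb, and at HoxC the groups overlap.

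For single genes, the mean level over the gene span with 1 kb on either side was tested for all 45861 genes with a tile. Of the 30 members 8 fell by at least 10 points at an adjusted p under 0.05, against 19.1% of all gene regions: Hoxa3, Hoxa4, Hoxa5, Hoxa6, Hoxa7, Hoxa9, Hoxd4 and Hoxd13. None rose, and none was higher at an unadjusted p under 0.05; 0.0414% of all gene regions rose. With no minimum difference 21 members fell, against 60.7% of all gene regions, and 0 rose, against 0.412%. The median difference of the members was -3.18 points, smaller than the -5.11 of all gene regions.

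By position, 6 of the 14 genes of groups 1 to 8 fell by at least 10 points and 2 of the 14 of groups 9 to 13. The share of all gene regions was 19.1%. With no minimum these counts were 13 and 7, against 60.7% of all gene regions. Neighbouring members share tiles: the Hoxa3 span of 52169059 to 52213067 contains Hoxa4, Hoxa5 and Hoxa6, and that of Hoxd3 contains Hoxd4. The counts are therefore not of independent regions.

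**Figure D5:**
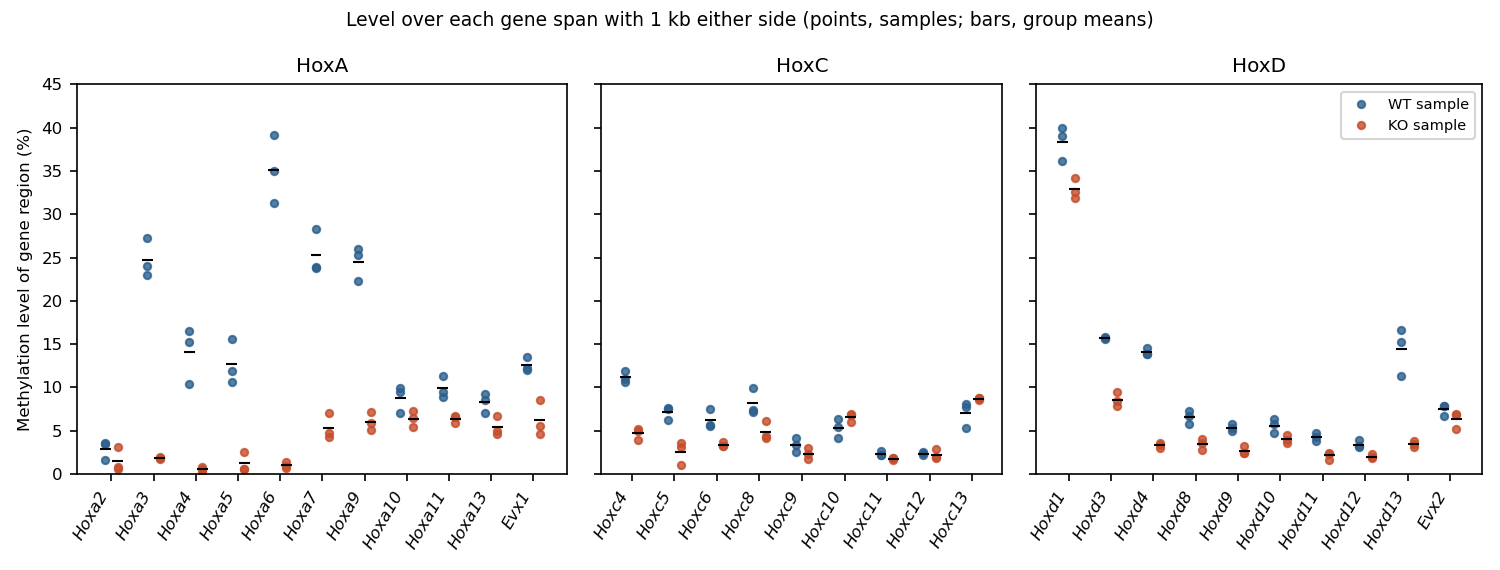
Methylation level in percent of the region of each of the 30 genes in each sample (points; bars, group means), ordered by paralog group with Evx last. From Hoxa3 to Hoxa9 the groups are far apart, the HoxC points lie between 1.03 and 11.9%, and Hoxd1 is the highest KO region.

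The largest loss was at Hoxa6 (chr6, 52204858 to 52208672), a thoracic patterning gene. Its region was at 1.44, 0.692 and 0.951% in KO and 39.2, 31.3 and 35.0% in WT, a difference of -34.1 points (SE 1.90, limma adjusted p = 7.30e-05). The groups were far apart, and 1 tile in the gene, 52207001 to 52208000, went from 73.0% ± 4.20 to 0.539% ± 0.385 (SD, n = 3).

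Hoxa3, which patterns the pharyngeal arches and the thymus, was at 1.79, 1.84 and 2.03% in KO and 27.3, 23.0 and 24.0% in WT (-22.9 points, adjusted p = 6.87e-05). Hoxa4 was at 0.800, 0.268 and 0.532% in KO and 16.6, 15.2 and 10.4% in WT (-13.5 points). Neither overlapped. The tile with the largest loss of all 640, 52210001 to 52211000, lies in the Hoxa3 span beyond Hoxa6 and went from 84.6 to 5.33%.

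Hoxa5, which is required for the formation of the trachea and lung, was at 2.59, 0.633 and 0.635% in KO and 15.6, 11.9 and 10.6% in WT, a difference of -11.4 points (SE 1.37, limma adjusted p = 0.000630). The groups did not overlap. Without WT replicate 1 the difference was -9.97 points and missed the minimum, and without the added 1 kb it was -5.88 points.

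Hoxa7 was at 4.29, 4.75 and 7.06% in KO and 28.3, 23.9 and 23.8% in WT, a difference of -20.0 points. Hoxa9, known for its roles in blood stem cells and in endothelial cells, was at 5.91, 5.03 and 7.11% in KO and 25.3, 22.3 and 26.0% in WT, a difference of -18.5 points. These groups did not overlap either. Hoxa9 is the single group 9 to 13 gene of HoxA that fell by at least 10 points, and its fallen tiles lie at 52222001 to 52225000, at the end that faces Hoxa7. Without the added 1 kb the Hoxa7 difference was -8.49 points.

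The remaining HoxA genes changed less. Hoxa2, a hindbrain and neural crest gene, was the low exception on the anterior side, at 2.89% in WT and 1.47% in KO with overlap (adjusted p = 0.218). Hoxa10, a uterine and limb gene, went from 8.84 to 6.41% with overlap (adjusted p = 0.0715). Hoxa11, Hoxa13 and Evx1 differed by -3.50, -2.87 and -6.38 points at adjusted p of 0.00892, 0.0272 and 0.00309. Their KO samples all lay below WT.

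No HoxC gene region of 9 fell by at least 10 points, against 19.1% of all gene regions. With no minimum 4 fell, against 60.7% of all gene regions: Hoxc4, Hoxc5, Hoxc6 and Hoxc8, all anterior. The largest loss was at Hoxc4 (chr15, 103018097 to 103036856), at 4.97, 3.97 and 5.15% in KO and 11, 11.9 and 10.6% in WT (-6.49 points, limma adjusted p = 0.000310). The posterior genes Hoxc9, Hoxc11 and Hoxc12 had group means between 1.78 and 3.37%. The largest difference upwards was at Hoxc13, a hair and nail gene, at 8.83, 8.80 and 8.51% in KO and 7.79, 8.13 and 5.28% in WT. Its KO samples lay above its WT samples, but the difference of 1.65 points did not pass the test (adjusted p = 0.144). Hoxc10 was 1.25 points higher in KO with overlap (adjusted p = 0.178).

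In HoxD the largest losses were on either side of the split. Hoxd13, the digit gene at the posterior end, was at 3.43, 3.10 and 3.87% in KO and 16.7, 15.2 and 11.4% in WT, a difference of -10.97 points (SE 1.36, limma adjusted p = 0.000707). Without WT replicate 1 the difference was -9.84 points. Its loss lay in 2 tiles at 74671001 to 74673000, at the far end of the gene from its start, which went from 35.0 to 5.53%.

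Hoxd4, a gene of the neck vertebrae, was at 3.54, 2.99 and 3.41% in KO and 13.9, 14.6 and 13.8% in WT, a difference of -10.8 points (SE 0.559, limma adjusted p = 6.87e-05). Without the added 1 kb it was -9.13 points. Hoxd1 had the highest region of all members, 32.9% in KO and 38.4% in WT, and Hoxd3 went from 15.7 to 8.58%. With no minimum 8 of the 10 HoxD regions fell, against 60.7% of all gene regions. Hoxd10 (limma adjusted p = 0.0600) and Evx2 (limma adjusted p = 0.211) did not pass. Evx2, an interneuron and limb gene, was at 6.33% in KO and 7.47% in WT with overlap.

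Subtracting from each sample its median tile level moved the median tile from -4.05 to 0.84 points. Hoxa3, Hoxa6, Hoxa7 and Hoxa9 kept a loss of at least 10 points on that scale, and Hoxa4, Hoxa5, Hoxd4 and Hoxd13 did not, at -8.64, -6.53, -5.91 and -6.08 points.

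In HoxA and HoxD the tiles with a member start changed less in points than the other tiles of their segments. Of the 23 member starts 2 fell by at least 10 points, against 15.0% of all starts tested, and 0 rose, against 0.0269%. Every start that was not called was at 6.84% or less in WT and could not fall by 10 points. This count therefore cannot tell starts that keep methylation from starts with little to lose. The Hoxa7 start tile was at 1.08, 2.54 and 3.98% in KO and 14.8, 18.9 and 11.9% in WT (-12.7 points, adjusted p = 0.00181). The Hoxd4 start tile was at 8.76, 4.38 and 4.44% in KO and 27.1, 16.1 and 17.9% in WT (-14.5 points, adjusted p = 0.00919). Neither pair of groups overlapped. Their promoters hold 9 and 4 CG. The starts of Hoxa9 (4 CG), 1 of the 2 of Hoxd11 (4 CG), Hoxd8 (6 CG), Hoxa2 and Hoxc4 (9 CG each) did not pass. Those starts were at 0.812 to 4.50% in WT and could not fall by 10 points. CG were counted in the promoters and not over the 1 kb tiles, and a link between CG number and loss was not tested. On levels centred by the median tile neither start fell by 10 points.

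The other 21 start tiles lay between 0.812 and 6.84% in WT. With no minimum, Hoxa6 (6.84 to 1.51%) and Hoxd12 (4.24 to 2.49%) fell as well, against 21.2% of all starts, and 0 rose, against 0.0977%. In the anterior HoxA segment the 5 tiles with a member start averaged 5.99% in WT and 1.94% in KO, and the other 52 averaged 25.6 and 2.05%. Low WT tiles were not limited to these starts: 23, 22 and 23 of the 57 anterior HoxA tiles were under 10% in the WT samples. In KO the start tiles and the other tiles were at nearly the same level. Hoxa4 had no matched start, so its start can lie among the other tiles. In the anterior HoxD segment the 4 start tiles went from 6.47 to 2.74% and the other 57 from 24.2 to 15.2%, so there the other tiles kept part of their methylation.

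Of the 13 non-coding and microRNA genes listed for these clusters, 4 fell by at least 10 points over their regions, against 19.1% of all gene regions: Hotairm2 (37.1 to 3.82%), Hoxaas2 (12.2 to 1.38%), Hoxaas3 (29.1 to 2.77%) and Haglr (41.1 to 26.6%). All are on the anterior side of HoxA or HoxD or just outside it, and Hoxaas3 shares its tiles with Hoxa3, Hoxa5 and Hoxa6. Hottip, at the posterior end of HoxA, went from 6.06 to 3.86%, and Hotair, in posterior HoxC, was at 9.18% in WT and 9.61% in KO with overlap. The tile with miR-10b, inside the Hoxd4 span and one of the tiles of its region, was at 4.28, 3.02 and 1.18% in KO and 9.06, 9.22 and 10.6% in WT, below the minimum of 10 points although the groups did not overlap. The tiles of miR-196b (4.09 to 2.13%), miR-196a (3.70 to 4.64%, at Mir196a-2) and miR-615 (1.48 to 0.729%) were low in both groups. The loci Mir196b in HoxA and Mir196a-2 in HoxC, whose products share a seed, thus both lay in DNA with little methylation.

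Among genes that act on the Hox clusters, 9 of 17 Polycomb gene regions fell by at least 10 points, against 19.1% of all gene regions, with Bmi1 (48.9 to 10.1%) and Cbx8 (30.2 to 1.96%) among them. Of the TALE homeodomain cofactors of Hox proteins 6 of 9 fell, among them Meis1 (63.7 to 46.8%). Of the caudal and retinoid input genes 3 of 8 fell, Rara, Rarg and Cyp26b1, and of the Trithorax and H3K27 demethylation genes 1 of 7, Kdm6b. No gene of these lists rose. The lists' median differences over gene regions were -11.3, -11.6, -8.46 and -3.55 points, against -5.11 over all gene regions. At gene starts 1 of 19, 0 of 5, 3 of 11 and 0 of 6 fell by at least 10 points, in the same order. The share of all starts was 15.0%, and starts under 10% in WT could not fall so far. The Bmi1 start was at 0.283% in WT and 9.10% in KO, with 1 KO sample at 26.4%. That of Cbx8 went from 5.82 to 0.647%.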

How the data were processed

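The data are 6 samples of lung endothelial DNA, 3 KO and 3 WT by the genotype in their labels. Input was 30 ng of DNA per sample, made into 3 libraries of paired 100 bp reads, per the labels' protocols, and per the submitters' processing notes BWA 0.7.8 aligned them to mm10. The deposited values are methylation levels as a fraction, 1 for every sample in every 1 kb tile, per the file headers. For the caller, the filters and any smoothing, the entry is: not given in the sources used here. There are no read counts in the table, so depth is unknown and no interval or detection limit was computed. Tiles lie on chromosomes 1 to 19.

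Fractions were turned into percent. Tiles, gene regions (tiles overlapping a gene span with 1 kb added) and start tiles were each fitted whole with limma 3.58.1 (R 4.3.3), with a variance trend, and adjusted by Benjamini-Hochberg over 1954255 tiles, 45861 genes and 29687 starts. The fit was tested on simulated data in which each tile was drawn independently, so that test does not cover correlated neighbouring tiles. A call needs an adjusted p under 0.05 and at least 10 points. Values over segments were compared by two-sided exact permutation tests (Python 3.11.15, scipy 1.17.1). Gene spans, starts and sequences are from RefSeq, GRCm38.p6; starts were matched for 21 of 30 members.

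Values in every sample are given for members with a call in region or start and for the largest difference in each direction in each cluster; of runs of called tiles (gap of at most 1 kb), the 4 longest of each cluster in each direction are named, with ties. Single tiles with the largest change were chosen after their values were seen. The members and lists were chosen with earlier results of these data known. Alternatives changed the scale, the variance model, the minimum, the segments and the samples.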

Additional observations from a re-analysis of the deposited data

How the results depend on the processing

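The direction of the level of HoxA and HoxD, of the HoxB comparison and of the counts of tiles under 10% held under each alternative run, and so did the anterior minus posterior change of HoxA and HoxC. Subtracting the median tile level adds the same points to low and high tiles: the HoxC difference then became 3.07 points, tile calls fell to 7 lower with 5 higher in HoxC and 10 lower in HoxD, HoxA gained 2 higher tiles, and 4 gene regions and 0 starts fell. Scaling to one mean level gave 2 higher tiles in HoxA, 2 in HoxC and 3 in HoxD, with 22 lower in HoxD. The log2 ratio, chosen after seeing the data, reversed the HoxD anterior to posterior change (0.40). With a minimum of 5 points 31 HoxC tiles fell and 2 rose; with none, 36 fell and 3 rose, 2 rose in HoxD, and 21 gene regions and 4 starts fell. Counted under 20%, the HoxC tile difference was 1.67 with overlap (exact permutation p = 0.5). Gene spans with no 1 kb added left 5 fallen regions, and start tiles with their neighbours gave 5 fallen starts. Leaving out each sample in turn gave 0 to 1 higher tiles in HoxA, the 1 without WT replicate 1, and 0 to 1 in HoxC, the 1 without KO replicate 2 or 3. The same alternatives for gene starts were added after the data were seen.

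Replicate numbers did not pair the samples: deviations of same-numbered samples correlated at 0.0056, -0.0032 and 0.0110. With the replicate block 95 HoxA, 20 HoxC and 38 HoxD tiles, 8 gene regions and 2 starts fell, and no call of a named gene changed. Depth is unknown, so it cannot be said which small differences it limits.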
